A study of Mus musculus with 12 samples.

Results

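Type I interferon-stimulated genes were followed in regulatory T cells (Treg), the CD4 lineage that holds other lymphocytes in check and is defined by the transcription factor Foxp3. The set held 45 named genes of 55011 in the count table, matched by symbol: IFIT genes, oligoadenylate synthetases, nucleic acid sensors, STAT and IRF factors, the ISG15 conjugation system, PARP and DTX3L genes, Schlafen genes, Ifi200 genes, antiviral effectors and other induced genes. All 45 were in the table and 43 passed the filter on low counts. Oas1g and Ifi44 did not. The list rests on gene function and was drawn up with earlier results of these data known.

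Type I interferons are secreted proteins that bind a receptor made of Ifnar1 and Ifnar2. The kinases Jak1 and Tyk2 then activate Stat2, which acts with Irf9 in a complex that binds the interferon-stimulated response element (ISRE) in the promoters of many antiviral genes. Several products of this response, such as Stat2, Irf7 and Irf9, feed it forward, and others, such as Usp18, restrain it. T cells carry the receptor, and many of these genes have a low standing level without infection.

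The cells came from male C57BL/6 mice aged 21 days, in 4 groups of 3 libraries. WT mice of both tissues carried Foxp3.ires.GFP, a reporter placed behind the working Foxp3 gene. Spleen ∆Foxp3 mice are labelled with the alleles [delta]Foxp3.EGFP.iCre and R26.YFP, and lung ∆Foxp3 mice with [delta]Foxp3.ires.GFP, while the written protocol names the lung allele for both tissues. Every library was made by Smart-seq2 from 1000 sorted cells that were DAPI negative and positive for TCRβ, CD4, GFP and CD25. The spleen was dissociated mechanically and the lung enzymatically with a magnetic enrichment, so tissue, dissociation and, among ∆Foxp3 libraries, the allele cannot be told apart. Whether the 3 libraries of a group stem from different mice is not stated in the labels, so a p-value measures the spread between libraries, which may be technical.

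Library totals ran from 3958892 to 9025150 counts. Levels are given as CPM, the count of a gene per 1000000 counts of its library, with library totals scaled by TMM factors. Foxp3 itself was at 991 to 1096 CPM in spleen WT and 114 to 227 CPM in spleen ∆Foxp3, and at 1328 to 1418 CPM in lung WT and 189 to 469 CPM in lung ∆Foxp3. The labels do not say which part of Foxp3 is missing, so these reads do not test the deletion. Cd4 was at 604 CPM or more and Cd3e at 663 CPM or more in every library. Of 7 Treg and T cell markers, Foxp3 included, 6 fell and 1 rose in spleen (12.5% and 14.1% of all genes tested). In lung 4 fell and 1 rose (10.5% and 9.74%). Il2ra, Ikzf2, Ctla4, Trbc2 and Cd3e had log2 fold changes of -1.02, -0.84, -0.74, -0.71 and -0.35 in spleen, and in lung Ikzf2, Ctla4 and Trbc2 fell by 0.55, 0.61 and 0.66. Cd4 rose in each tissue (0.38 and 0.37).

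One library stood apart in the interferon-stimulated genes. Lung WT replicate 1 was the highest of its group for 39 of the 43 tested genes (90.7%), against 35.4% of all genes tested. Its median log2 ratio to the mean of the other lung WT libraries was 0.60 over these genes and -0.01 over all genes. It also held more RNA of macrophage and neutrophil markers, though not of erythroid, epithelium or endothelium markers, for which another lung WT library was higher. The summed level of 10 macrophage, monocyte and dendritic markers was 145 CPM against 4.15 and 2.64 CPM in lung WT 2 and 3, of which Lyz2 gave 126 CPM while C1qa and C1qb were at 0. The 6 neutrophil markers summed to 31.0 CPM against 1.04 and 1.76 CPM. Lung ∆Foxp3 replicate 3 was the lowest of its group for 26 of the 43 genes, with a median log2 ratio of -0.38. It had 2.44% mitochondrial counts, against 1.40% to 1.63% in the other libraries, and the part of this in its low values was not tested. Lung WT 3 had a ratio of -0.40. The calls of these genes that end without lung WT 1 or lung ∆Foxp3 3 are named below.

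**Figure D1:**
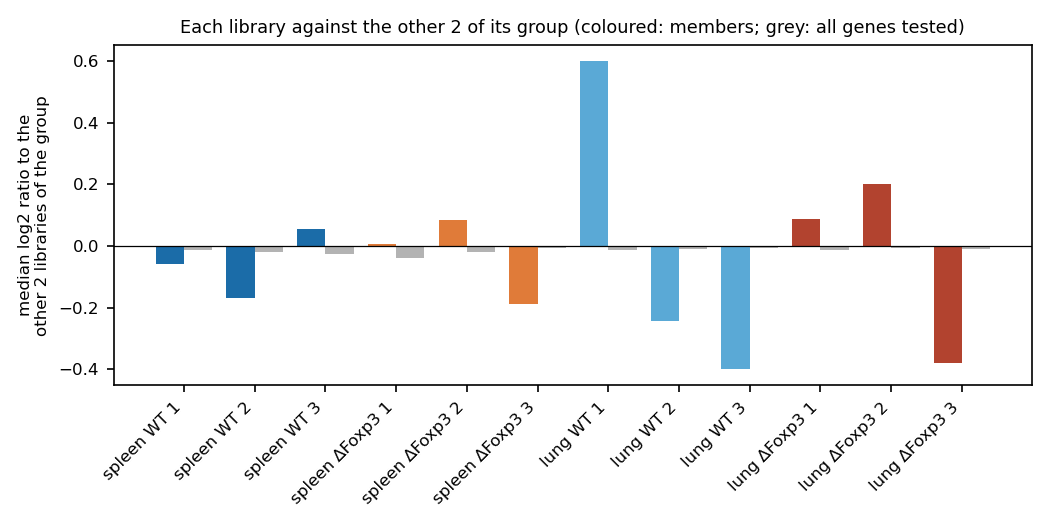
Median log2 ratio of each library to the other libraries of its group (y axis) for the 43 tested interferon-stimulated genes (coloured bars) and for all genes tested (grey bars). Lung WT 1 stands at 0.60, lung WT 3 at -0.40 and lung ∆Foxp3 3 at -0.38, while the grey bars stay near 0.

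Promoter sequences are shown for 6 genes of 5 families whose RNA is described below, because each holds the core of the ISRE close to its start site. Each is the 160 bases before the RefSeq start site, 5′ to 3′ on the strand of the gene, build GRCm38.p6. Capitals mark the ISRE core, which is GAAA, any 2 bases and GAAA again, or its reverse complement TTTC, any 2 bases and TTTC, and overlapping matches run together. The genes are the ubiquitin-like modifier Isg15 (chr4:156200819-156200978, minus strand), the RNA-binding proteins Ifit1 (chr19:34640729-34640888, plus strand) and Ifit3 (chr19:34583369-34583528, plus strand), the radical SAM enzyme Rsad2 or viperin (chr12:26456453-26456612, minus strand), the RNA-activated synthetase Oas1a (chr5:120907526-120907685, minus strand) and the Ifi200 protein Ifi206 (chr1:173491319-173491478, minus strand).
Isg15: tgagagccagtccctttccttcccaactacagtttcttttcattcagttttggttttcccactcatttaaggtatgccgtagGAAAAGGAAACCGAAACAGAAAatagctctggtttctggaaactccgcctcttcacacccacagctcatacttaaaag
Ifit1: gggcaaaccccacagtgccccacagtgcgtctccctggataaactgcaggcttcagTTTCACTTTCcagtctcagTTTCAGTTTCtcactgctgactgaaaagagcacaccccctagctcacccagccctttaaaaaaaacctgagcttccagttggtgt
Ifit3: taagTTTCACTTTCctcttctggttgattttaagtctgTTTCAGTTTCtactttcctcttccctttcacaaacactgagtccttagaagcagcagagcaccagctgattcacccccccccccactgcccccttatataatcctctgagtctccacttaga
Rsad2: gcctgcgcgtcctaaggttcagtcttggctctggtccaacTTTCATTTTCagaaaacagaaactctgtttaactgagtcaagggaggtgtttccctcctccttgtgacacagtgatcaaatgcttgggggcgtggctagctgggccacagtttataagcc
Oas1a: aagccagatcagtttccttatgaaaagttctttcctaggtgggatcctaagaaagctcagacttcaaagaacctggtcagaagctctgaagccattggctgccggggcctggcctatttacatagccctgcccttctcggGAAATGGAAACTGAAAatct
Ifi206: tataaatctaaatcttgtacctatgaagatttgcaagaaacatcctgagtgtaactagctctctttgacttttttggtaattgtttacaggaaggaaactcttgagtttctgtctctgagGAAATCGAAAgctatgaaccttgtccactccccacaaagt

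The core was searched on both strands of 300 bases, from 250 before to 50 after each RefSeq start site. RefSeq promoters were matched for 34 of the 45 genes and gave 42 promoters. The ISRE core was in a promoter of 20 of these 34 genes (58.8%), against 3.99% of all 27025 genes with a promoter in the table. Counted by promoter, 23 of 42 (54.8%) held it, against 3.44% of 32851 promoters. There were 31 matches, 25 of them within 160 bases before the start site. The shorter GAS motif, TTC, any 3 bases and GAA, the gamma-activated site of interferon gamma signalling, was in a promoter of 6 of the 34 genes (17.6%), against 9.55% of all genes, and 1 ISRE match overlapped a GAS match. A match is a run of letters and was not shown to be a bound site.

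In ∆Foxp3 Treg of the spleen, interferon-stimulated genes were mostly lower. Of the 43 tested, 31 fell (edgeR quasi-likelihood test, Benjamini-Hochberg adjusted p under 0.05), 0 rose and 12 did not pass. Over all 13295 genes tested, 12.5% fell in the same comparison and 14.1% rose. The median log2 fold change was -1.21 over the 43 genes and -0.02 over all genes. Of these 31, 26 fell more than 2-fold, which 7.48% of all genes did. For 35 of the 43, the 3 ∆Foxp3 libraries all lay below the 3 WT libraries (19.5% of all genes), and for 1, Ifi204, all lay above (18.6% of all genes).

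The lung showed a like count. There 31 of 43 genes fell, 0 rose and 12 did not pass, against 10.5% of all genes lower and 9.74% higher. No gene of the set was higher in lung at an unadjusted p under 0.05 either, and DESeq2 and limma called 0 higher. The median log2 fold change was -1.42, against -0.01 over all genes, and 23 fell more than 2-fold (6.54% of all genes). The libraries did not overlap, with ∆Foxp3 below WT, for 35 genes (22.2% of all genes). Without lung WT 1, 20 of the 43 were called lower (6.25% of all genes), the median was -1.11, and 40 of 43 estimates were below 0. Without spleen WT 1, lung WT 1 and lung ∆Foxp3 3 together, 17 were called in lung (4.79% of all genes) with a median of -1.08. All 17 were among the 31. This choice was made after seeing the data and left 1 library fewer in both lung groups. Spleen WT 1 had a median log2 ratio of -0.06 over these genes, and lung WT 3, at -0.40, was kept. In spleen 31 were called without those 3 libraries (10.5% of all genes), 29 of them among the 31 of the full comparison.

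The same genes were largely involved in both tissues. In all, 27 of the 43 fell in both, against 7.18% of all genes, which is 27 of the 31 that fell in spleen and 27 of the 31 that fell in lung. Ifit3b, Parp9, Slfn1 and Ifi35 passed in spleen alone, and Ddx58, Mx2, Isg20 and Bst2 in lung alone. The 8 genes that passed in neither were Ifit2, Oas3, Ifih1, Dtx3l, Ifi204, Cmpk2, Mx1 and Samd9l. Across the 43 genes, Pearson's r between the spleen and lung log2 fold changes was 0.90, a description over genes that share their libraries and dispersion fit. In every alternative tried, 23 genes stayed lower in spleen and 14 in lung, and 12 did so in both: Ifit1, Dhx58, Irf7, Irf9, Usp18, Slfn5, Ifi203, Ifi206, Rsad2, Trim30a, Rtp4 and Ifi27l2a.

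Some calls ended when 1 library was left out. In lung this happened to 11 calls without lung WT 1 (edgeR adjusted p 0.0509 to 0.217): Bst2, Ddx58, Herc6, Ifit1bl1, Isg15, Isg20, Parp14, Stat2, Trim30d, Xaf1 and Zbp1. Without lung ∆Foxp3 3 it happened to 10 (0.0513 to 0.171), namely Mx2 and 9 of those 11, all except Isg15 and Trim30d. Without lung ∆Foxp3 2 it happened to Bst2, Herc6, Isg15, Isg20, Parp14 and Zbp1, and without lung ∆Foxp3 1 to Bst2, Ddx58, Isg15, Xaf1 and Zbp1. The calls of Herc6 and Parp14 were lost without lung WT 2, and those of Herc6, Isg15 and Zbp1 without lung WT 3. The lung call of Zbp1 was also lost without spleen ∆Foxp3 1, which shares the fit but not the comparison (edgeR adjusted p 0.0503). The lung estimate of Herc6 was -0.92 with all libraries and -0.91 without lung WT 2. Over all alternatives it ran from -1.15 to -0.66. In spleen the calls of Ifit3b, Zbp1, Eif2ak2, Isg15 and Parp9 were lost without 1 or another library (0.0535 to 0.149).

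**Figure D2:**
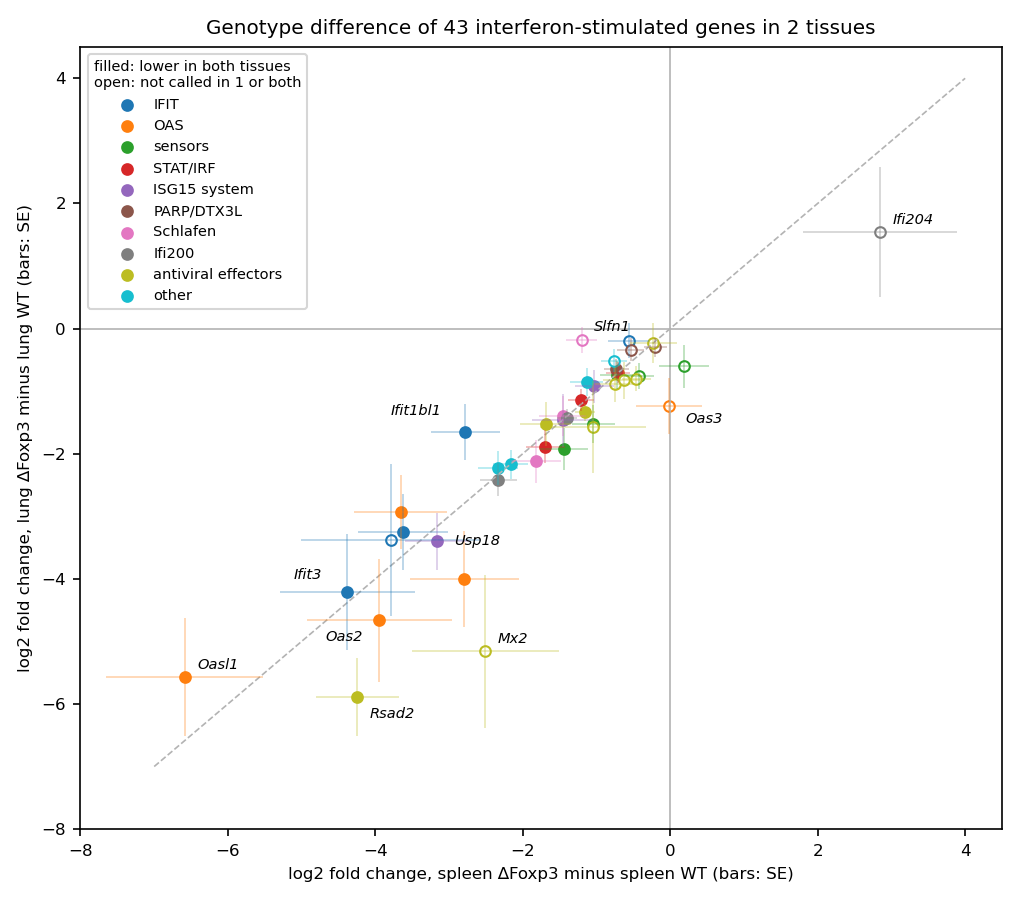
Log2 fold change of ∆Foxp3 against WT in spleen (x axis) and lung (y axis) for the 43 tested genes, with standard errors as bars and colours for gene families. Most points lie in the lower left along the dashed line of equality, from Oasl1 (-6.59 and -5.57) to genes near 0, while Ifi204 lies at 2.85 and 1.54 and passed in neither tissue.

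As a share of all counts, the 45 genes made up 0.463% to 0.657% of each WT library and 0.178% to 0.238% of each ∆Foxp3 library, and these ranges did not overlap. Ifi27l2a gave the most RNA. Without it the sum of the other genes ranged from 3277 to 4938 CPM (WT) and from 1523 to 2018 CPM (∆Foxp3). In bulk RNA, fewer cells that use a gene and less RNA of that gene per cell cannot be told apart.

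**Figure D3:**
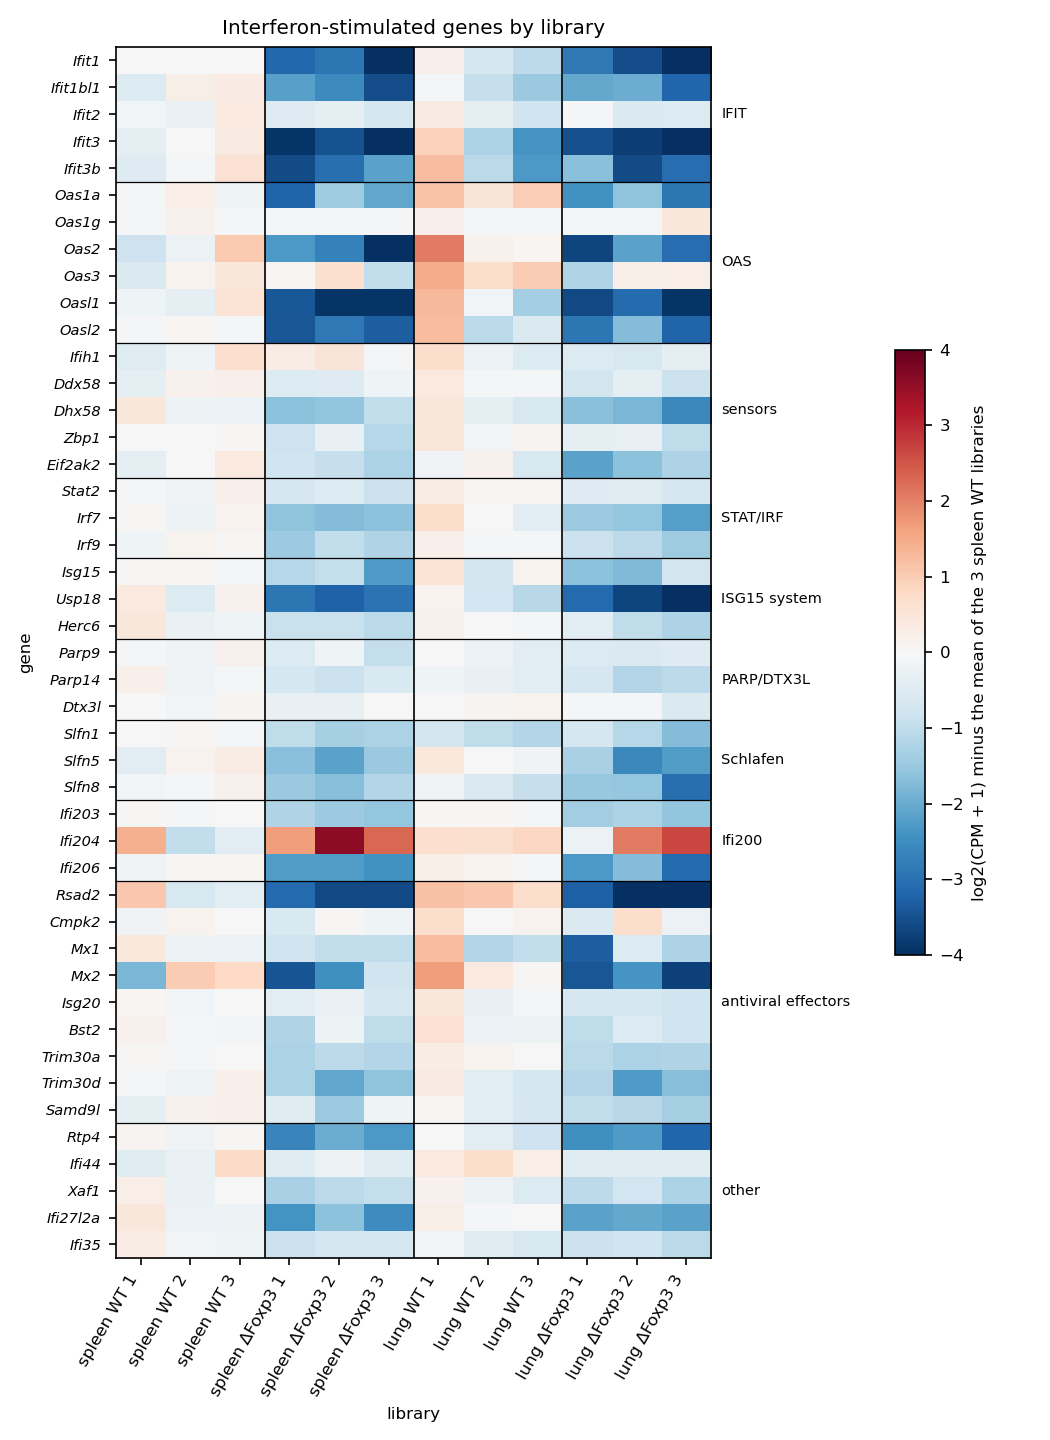
Level of each of the 45 genes (rows, by family) in each of the 12 libraries (columns), as log2(CPM + 1) minus the mean of the spleen WT libraries. Blue marks lower levels in most rows of both ∆Foxp3 groups, and the reddest cells are Ifi204 in ∆Foxp3 libraries and Oas2 in lung WT 1.

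IFIT genes, whose products bind foreign RNA, had 4 of 5 lower in spleen and 3 of 5 in lung (12.5% and 10.5% of all genes). Ifit1bl1 was at 77.5, 135 and 142 CPM in spleen WT against 24.7, 18.7 and 8.90 CPM in spleen ∆Foxp3. Its lung WT libraries held 111, 60.1 and 39.9 CPM and its ∆Foxp3 libraries 27.0, 28.1 and 11.8 CPM. Every ∆Foxp3 value was below every WT value of the same tissue. The log2 fold change was -2.78 ± 0.46 (SE) in spleen and -1.65 ± 0.45 in lung (edgeR adjusted p 0.000793 and 0.0212). The lung call of Ifit1bl1 was lost without lung WT 1 (log2 fold change -1.12, edgeR adjusted p 0.104).

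Larger falls were seen in Ifit1 (-3.62 and -3.25 in spleen and lung) and Ifit3 (-4.38 and -4.21). The lung call of Ifit3 was lost with limma, without the low-count filter and with only the groups compared, with an adjusted p of up to 0.0898 and estimates from -4.69 to -2.10 over the alternatives. Lung WT 1 held 120 CPM of Ifit3 and the middle library of that group 25.7 CPM. Ifit3 shares 57.3% of its 38-base windows with Ifit3b, and Ifit3b 49.9% of its windows with Ifit3, so their separate values are uncertain. Summed, the pair fell in both tissues, with log2 fold changes of -4.28 and -4.03 (edgeR adjusted p 0.00413 and 0.00834).

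Ifit2, in the same gene cluster (chr19:34550694-34650009), differed less. Its levels were 43.9, 39.1 and 63.1 CPM in spleen WT and 32.8, 37.2 and 29.1 CPM in spleen ∆Foxp3. In lung, WT libraries were at 60.7, 37.1 and 27.2 CPM and ∆Foxp3 libraries at 44.8, 31.9 and 32.6 CPM. The spleen groups did not overlap and the lung groups did. Its log2 fold changes were -0.56 ± 0.28 and -0.19 ± 0.28 and did not pass (edgeR adjusted p 0.156 and 0.682), and without lung WT 1 the lung estimate was 0.22.

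Oligoadenylate synthetases make a second messenger that activates RNase L, and their relative Oasl1 binds RNA without making it. Of the 5 tested, 4 fell in each tissue, all except Oas3 (12.5% of all genes fell in spleen and 10.5% in lung). Oasl1 held 12.4, 10.5 and 21.1 CPM in spleen WT and 0.44, 0 and 0 CPM in spleen ∆Foxp3. Lung WT gave 36.2, 13.0 and 4.92 CPM and lung ∆Foxp3 0.23, 0.79 and 0 CPM. The low values rest on a few counts: the spleen groups had 307 and 2 counts, a ratio of 115 with a 95% counting interval of 31.4 to 950, which covers counting error only. The fitted log2 fold changes were -6.59 ± 1.06 and -5.57 ± 0.95 (edgeR adjusted p 0.000445 and 0.00110), and the spleen value depends on the prior count that the fit adds.

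Log2 fold changes in spleen and lung were -3.94 and -4.66 for Oas2 and -3.65 and -2.93 for Oasl2, and -2.80 in spleen for Oas1a, which was also called lower in lung. With limma the calls of Oas2 in both tissues and of Oasl1 in lung were lost (adjusted p 0.0527 to 0.0607 at most over the alternatives), and the spleen call of Oas1a was lost with only the groups compared (0.0545). Lung WT 1 was more than 3 times the middle library of its group for Oas2 and Oasl2. Oas1a shares 64.4% of its windows with Oas1g. Oas1g had 0 to 2 counts in each library and was not tested, and the summed row of both fell in each tissue.

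Oas3, the longest synthetase, went otherwise. Its spleen levels were 23.5, 39.8 and 49.4 CPM in WT and 38.0, 56.3 and 17.5 CPM in ∆Foxp3, which overlap. Its lung levels were 103, 58.6 and 74.4 CPM in WT and 15, 42.0 and 43.1 CPM in ∆Foxp3, which do not. The log2 fold change was -0.02 ± 0.44 in spleen and -1.24 ± 0.45 in lung (edgeR adjusted p 0.983 and 0.0674). The difference between tissues was -1.22 ± 0.63 (edgeR adjusted p of the interaction 0.607). In lung Oas3 passed in 4 of 21 alternatives, DESeq2 among them.

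Among sensors of foreign nucleic acid, 3 of 5 fell in spleen and 4 of 5 in lung (12.5% and 10.5% of all genes). Dhx58 encodes LGP2, a regulator of the RNA helicase sensors. It was at 104, 64.9 and 63.9 CPM in spleen WT against 23.4, 24.5 and 37.5 CPM in spleen ∆Foxp3. The lung libraries read 103, 58.6 and 48.2 CPM for WT and 23.1, 20.4 and 11.8 CPM for ∆Foxp3. Groups did not overlap in either tissue, and the falls were 1.44 ± 0.32 and 1.92 ± 0.34 on the log2 scale (edgeR adjusted p 0.00437 and 0.00125).

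Zbp1, a sensor of Z-form nucleic acid that can trigger necroptosis, showed a smaller change. Spleen WT libraries were at 148, 145 and 152 CPM and spleen ∆Foxp3 libraries at 82.2, 120 and 67.3 CPM. Lung WT libraries were at 205, 138 and 161 CPM and lung ∆Foxp3 libraries at 112, 118 and 72.2 CPM. All ∆Foxp3 values lay below WT, and Zbp1 fell by 0.73 ± 0.23 and 0.74 ± 0.23 on the log2 scale (edgeR adjusted p 0.0270 and 0.0325). Both calls of Zbp1 lay near the threshold and were lost when any of several single libraries was left out. Over the alternatives the adjusted p ran from 0.00201 to 0.101 in spleen and from 0.00255 to 0.376 in lung. The log2 fold change stayed between -0.99 and -0.55 in spleen and between -0.83 and -0.35 in lung. Without lung WT 1 the lung edgeR adjusted p was 0.167.

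The other RNA helicase sensors were called in lung or not at all. Ifih1 (MDA5) was at 25.7, 32.2 and 59.3 CPM in spleen WT and 45.2, 53.2 and 34.6 CPM in spleen ∆Foxp3. For lung the values were 60.1, 31.1 and 25.0 CPM (WT) against 24.7, 23.4 and 28.4 CPM (∆Foxp3). The groups overlapped in both tissues, with log2 fold changes of 0.18 ± 0.34 and -0.60 ± 0.35 (edgeR adjusted p 0.737 and 0.242). Ddx58 (RIG-I) was -0.42 in spleen, not called, and -0.76 in lung, called, and its lung call was lost without lung WT 1 (-0.55, edgeR adjusted p 0.108). Eif2ak2, the kinase PKR, fell by 1.04 and 1.53.

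All 3 STAT and IRF factors of the set, the parts of the response that drive it, fell in both tissues (7.18% of all genes). Irf9, the DNA-binding partner of Stat2, was at 234, 297 and 273 CPM in spleen WT and 97.0, 136 and 115 CPM in spleen ∆Foxp3. WT lung stood at 309, 256 and 260 CPM, ∆Foxp3 lung at 147, 129 and 98.7 CPM. The highest ∆Foxp3 value of each tissue was well below the lowest WT value. Irf9 fell by 1.21 ± 0.18 and 1.14 ± 0.18 on the log2 scale (edgeR adjusted p 0.000174 and 0.000498). Irf7, which amplifies interferon production, fell by 1.69 and 1.89, and Stat2 by 0.70 in each tissue; without lung WT 1, the lung adjusted p of Stat2 was 0.0509.

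In the ISG15 system, the small protein Isg15 is attached to targets by Herc6 and removed by Usp18. Its genes had 3 of 3 lower in each tissue (12.5% of all genes in spleen and 10.5% in lung). Usp18 also blocks the receptor subunit Ifnar2. Its RNA was at 162, 84.9 and 139 CPM in spleen WT and 15.7, 12.2 and 15.1 CPM in spleen ∆Foxp3. Lung WT gave 137, 72.0 and 57.1 CPM and lung ∆Foxp3 13.4, 8.92 and 2.90 CPM. No library of one genotype came near the other. The falls in Usp18 were 3.16 ± 0.43 and 3.40 ± 0.45 on the log2 scale (edgeR adjusted p 0.000164 and 0.000256). Isg15 itself fell by 1.45 and 1.47 and Herc6 by 1.03 and 0.92, and without lung WT 1 neither passed in lung (edgeR adjusted p 0.126 and 0.0976).

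The PARP and DTX3L genes, a mono-ADP-ribosylation module, had 2 of 3 lower in spleen and 1 of 3 in lung (12.5% and 10.5% of all genes). Parp14 was at 168, 133 and 137 CPM in spleen WT and 88.1, 79.8 and 95.4 CPM in spleen ∆Foxp3. The lung libraries read 128, 117 and 107 CPM for WT and 91.6, 64.4 and 69.0 CPM for ∆Foxp3. Groups did not overlap, and Parp14 fell by 0.73 ± 0.17 and 0.65 ± 0.17 on the log2 scale (edgeR adjusted p 0.00479 and 0.0146, the latter 0.0816 without lung WT 1). Parp9 passed in spleen alone (-0.54, edgeR adjusted p 0.0426, from 0.00734 to 0.149 over the alternatives).

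Dtx3l, the ubiquitin ligase that pairs with Parp9, passed in neither tissue. It was at 178, 163 and 190 CPM in spleen WT and 143, 144 and 174 CPM in spleen ∆Foxp3. For lung the values were 173, 189 and 196 CPM (WT) against 166, 168 and 118 CPM (∆Foxp3). Spleen groups overlapped and lung groups did not, with log2 fold changes of -0.20 ± 0.16 and -0.30 ± 0.16 (edgeR adjusted p 0.372 and 0.191).

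Schlafen genes, lymphocyte regulators of growth and RNA, had 3 of 3 lower in spleen and 2 of 3 in lung (12.5% and 10.5% of all genes). Slfn1 had the smallest p of the set in the test between tissues, given below. It was at 373, 385 and 353 CPM in spleen WT and 183, 147 and 153 CPM in spleen ∆Foxp3. Lung WT libraries held 224, 181 and 165 CPM and lung ∆Foxp3 libraries 225, 169 and 111 CPM. Only the spleen WT libraries were high, and both lung groups overlapped. Slfn1 fell by 1.20 ± 0.21 in spleen (edgeR adjusted p 0.000722), while in lung the log2 fold change was -0.18 ± 0.21 (edgeR adjusted p 0.593). Slfn5 fell by 1.82 and 2.12, and Slfn8 by 1.46 and 1.39.

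Ifi200 genes encode DNA-binding proteins and lie together on chromosome 1. Of the 3, Ifi203 and Ifi206 fell in both tissues (7.18% of all genes). Ifi203 was at 423, 391 and 409 CPM in spleen WT and 175, 147 and 140 CPM in spleen ∆Foxp3. WT lung stood at 423, 423 and 388 CPM, ∆Foxp3 lung at 155, 168 and 136 CPM. The libraries of a group lay close together and genotypes were far apart, with falls of 1.41 ± 0.13 and 1.42 ± 0.13 on the log2 scale (edgeR adjusted p 7.56e-06 and 1.13e-05), the smallest adjusted p values of the set. Ifi206 fell by 2.33 and 2.41.

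Ifi204 was the exception. It held 4.23, 0 and 0.46 CPM in spleen WT and 5.25, 22.5 and 8.75 CPM in spleen ∆Foxp3. Lung WT gave 2.15, 2.07 and 2.46 CPM and lung ∆Foxp3 0.69, 7.33 and 11.6 CPM. Every spleen ∆Foxp3 library was above every spleen WT library, and the lung groups overlapped. The log2 fold changes were 2.85 ± 1.05 and 1.54 ± 1.05 and did not pass (edgeR adjusted p 0.0597 and 0.331). In spleen Ifi204 passed without spleen WT 1 (5.53, edgeR adjusted p 0.00490) and without lung ∆Foxp3 1 (0.0362), and DESeq2 called it higher. Ifi204 is expressed strongly by macrophages, and in spleen the macrophage, monocyte and dendritic markers ranged in summed level from 28.2 to 132 CPM (WT) and from 37.2 to 300 CPM (∆Foxp3), which overlap; their part in the Ifi204 level was not tested. Between 18.0% and 31.7% of the windows of these 3 genes also occur in other genes, so reads may be split among relatives, and the 3 genes summed fell by 1.55 and 1.64.

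Antiviral effectors, which act on virus replication or release, had 3 of 9 lower in spleen and 6 of 9 in lung (12.5% and 10.5% of all genes). Trim30a, a regulator of NF-kappaB signalling, was at 206, 190 and 198 CPM in spleen WT and 82.4, 95.6 and 88.1 CPM in spleen ∆Foxp3. The lung libraries read 244, 218 and 197 CPM for WT and 93.9, 81.3 and 84.9 CPM for ∆Foxp3. WT libraries were uniformly above ∆Foxp3, and Trim30a fell by 1.16 ± 0.14 and 1.34 ± 0.14 on the log2 scale (edgeR adjusted p 3.06e-05 and 2.20e-05). Rsad2 had the largest fall of the group, 4.24 in spleen and 5.89 in lung, and Trim30d fell by 1.69 and 1.52, with a lung adjusted p of 0.0522 without lung WT 1 (-1.09). Mx2 was -2.51 in spleen, not called, and -5.16 in lung, called. That lung call was lost without lung ∆Foxp3 3 (-4.58, edgeR adjusted p 0.0513), with limma and without the low-count filter. Over the alternatives its lung adjusted p was up to 0.121. In spleen Mx2 passed without WT 1 or ∆Foxp3 3 (edgeR adjusted p 0.0288 and 0.0242). Isg20 and Bst2 passed in lung alone (-0.80 and -0.89), and neither passed there without lung WT 1 (edgeR adjusted p 0.0935 and 0.217). In spleen Bst2 had an adjusted p of 0.0522 and passed in 7 of 21 alternatives, DESeq2 and limma among them.

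The other 3 effectors passed in neither tissue. Cmpk2, a mitochondrial nucleotide kinase, was at 27.6, 33.8 and 30.2 CPM in spleen WT and 19.5, 31.6 and 27.0 CPM in spleen ∆Foxp3. For lung the values were 49.7, 30.3 and 33.6 CPM (WT) against 19.8, 50.7 and 25.7 CPM (∆Foxp3). Both pairs of groups overlapped, and the log2 fold changes of -0.23 ± 0.32 and -0.24 ± 0.32 were within the spread (edgeR adjusted p 0.645 and 0.654).

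Mx1, a dynamin-like GTPase whose C57BL/6 allele is known to make no working protein, was at 21.6, 13.6 and 13.1 CPM in spleen WT and 8.52, 7.43 and 7.46 CPM in spleen ∆Foxp3. Lung WT libraries held 37.9, 6.48 and 7.38 CPM and lung ∆Foxp3 libraries 0.69, 10.5 and 6.03 CPM. The spleen groups did not overlap, whereas lung WT 1 alone was high in lung. The log2 fold changes of Mx1 were -1.05 ± 0.72 and -1.57 ± 0.74 (edgeR adjusted p 0.311 and 0.152).

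Samd9l, a restriction factor of poxviruses, was at 72.6, 108 and 112 CPM in spleen WT and 68.4, 34.3 and 85.7 CPM in spleen ∆Foxp3. WT lung stood at 99.1, 69.7 and 59.9 CPM, ∆Foxp3 lung at 48.0, 43.4 and 37.3 CPM. Only the lung groups were apart, and neither log2 fold change passed (-0.63 ± 0.29 and -0.83 ± 0.29, edgeR adjusted p 0.122 and 0.0590), though Samd9l passed in lung in 5 of 21 alternatives and in spleen in 2.

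Of the other induced genes, 4 of 4 tested fell in spleen and 3 of 4 in lung (12.5% and 10.5% of all genes). Ifi27l2a, a small mitochondrial membrane protein, was at 2009, 1246 and 1301 CPM in spleen WT and 283, 477 and 256 CPM in spleen ∆Foxp3. Lung WT gave 1757, 1411 and 1461 CPM and lung ∆Foxp3 338, 354 and 336 CPM. The genotypes were far apart, with a fall of 2.17 ± 0.23 on the log2 scale in each tissue (edgeR adjusted p 1.61e-05 and 3.40e-05). Per kilobase of exon it was also the most abundant gene of the set, at 3280 CPM per kilobase in spleen WT and 3333 in lung WT, followed by Slfn1 at 199 in spleen WT. Rtp4, a chaperone of receptor transport, fell by 2.34 and 2.23, and Xaf1, an inhibitor of XIAP, by 1.13 and 0.86. Without lung WT 1 the lung adjusted p of Xaf1 was 0.0970. Ifi35 passed in spleen alone (-0.77, and -0.51 with an edgeR adjusted p of 0.0544 in lung, where it passed in 5 of 21 alternatives). Ifi44, not tested, had 4, 5 and 4 counts in lung WT and 0 counts in all 3 lung ∆Foxp3 libraries, where a count of 0 allows 0.569 to 0.691 CPM per library (3 counts).

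**Figure D4:**
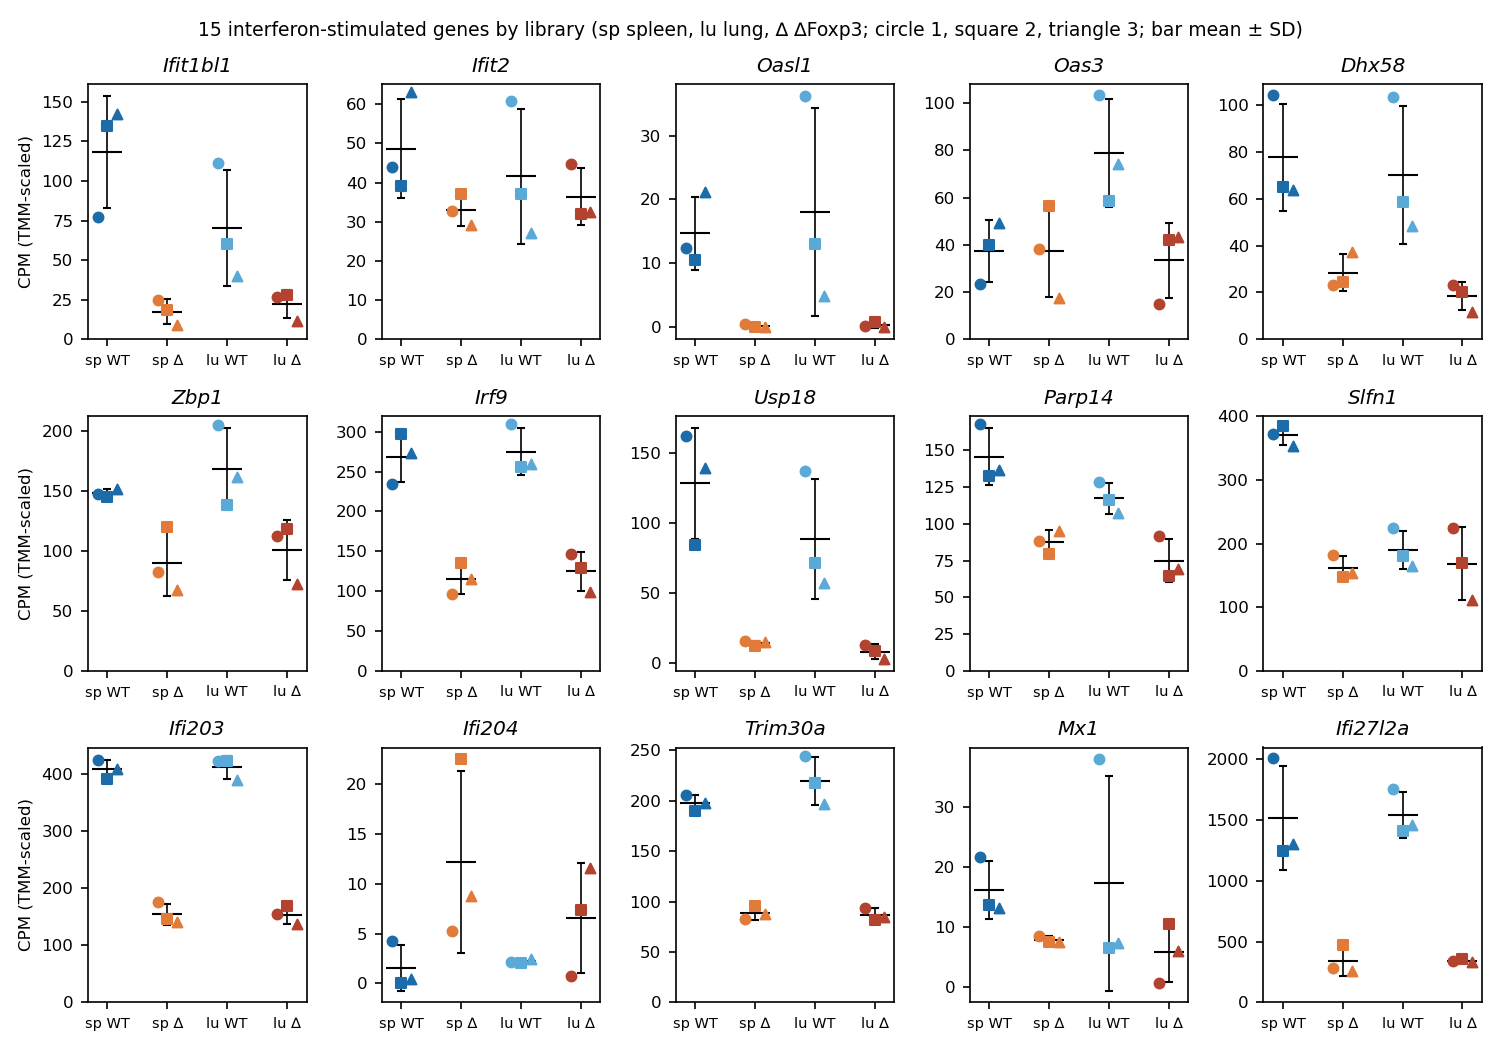
Levels in CPM (y axes) of 15 interferon-stimulated genes in each library by group (x axes), with the group mean and SD as bars (n = 3). WT and ∆Foxp3 libraries separate in both tissues for genes such as Usp18, Irf9 and Ifi203, Slfn1 separates in spleen alone, and lung WT 1 (circle) is high for Ifit2, Oasl1 and Mx1.

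Neighbouring genes did not always move together. Of the 45 genes, 26 lie in 9 clusters of genes less than 500000 bases apart. On chromosome 12, Rsad2 (chr12:26442746-26456452) fell in both tissues and its neighbour Cmpk2 (chr12:26469204-26479837) was called in neither. In the cluster on chromosome 5 (chr5:120730333-120907521), Oas2 and Oas1a fell on either side of Oas3. In the chromosome 19 cluster, Ifit2 was called in neither tissue beside Ifit1, Ifit1bl1 and Ifit3, which fell in both. Coordinates are of GRCm38, GENCODE vM21.

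The ISRE core was present in 19 tested genes with a promoter and absent in 13. The median log2 fold change in genes with the core was -1.46 in spleen and -1.52 in lung, of which 15 and 16 fell. In genes without it the medians were -1.03 and -0.83, and 8 and 7 fell. Over all genes tested, 12.5% fell in spleen and 10.5% in lung. Oasl1, the gene with the largest spleen change, had no match. The difference between these groups of genes was not tested.

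Between the tissues of WT mice, the count of these genes called was near the share over all genes. Of the 43, 1 was lower in lung WT than in spleen WT and 0 were higher, against 1.03% and 3.10% of all genes. An unadjusted p under 0.05 in edgeR was found for 3 of the 43 and for 2538 of the 13295 genes tested. The gene called was Slfn1, with a log2 fold change of -0.96 ± 0.21 (edgeR adjusted p 0.0159). Oas3 was 2.10-fold higher in lung WT with no overlap and did not pass (edgeR adjusted p 0.201). Without spleen WT 1, lung WT 1 and lung ∆Foxp3 3, 3 genes of the set were called lower in lung WT. Over all genes, 398 of 13671 were then called in either direction. In that fit 12 of the 43 had an unadjusted p under 0.05 in edgeR, for which the share over all genes is not given here. The call of Slfn1 was lost without spleen WT 2, lung WT 2 or lung WT 3, with an adjusted p of up to 0.0927. Among ∆Foxp3 libraries 0 of 43 were called between tissues by edgeR, DESeq2 or limma (0.722% of all genes by edgeR), and 2, Ifih1 and Eif2ak2, had an unadjusted p under 0.05 in edgeR.

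The test of whether the genotype difference itself differed between tissues called 0 of 43 genes, against 0.925% of all genes, and DESeq2 and limma also called 0. Slfn1 alone had an unadjusted p under 0.05 in edgeR, with an interaction of 1.02 ± 0.29 on the log2 scale (edgeR adjusted p 0.162). Its adjusted p ran from 0.00554 to 0.393 over the alternatives, and was 0.0448 without lung ∆Foxp3 3. The genes called in 1 tissue alone are thus not shown to differ between tissues.

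Spread between libraries differed by tissue. The median coefficient of variation of the 43 genes was 18.7% in spleen WT and 23.7% in spleen ∆Foxp3, against 24.9% over all genes in both. In lung it was 27.5% in WT and 32.2% in ∆Foxp3, against 19.0% and 18.8% over all genes. In lung the median over these genes was thus above the median over all genes. The comparison was not matched for level, and several of these genes had few counts in ∆Foxp3 libraries. In lung WT, replicate 1 was the highest library for 39 of the 43 genes.

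Markers of other cells were measured beside these results. Plasmacytoid dendritic cells make much type I interferon and express these genes highly. Of their 7 markers, 3 were tested, and 2 fell in spleen and 1 in lung (12.5% and 10.5% of all genes). The list summed to 133 to 152 CPM in spleen WT, 43.3 to 73.2 in spleen ∆Foxp3, 111 to 149 in lung WT and 35.7 to 96.9 in lung ∆Foxp3. Pacsin1 and Ccr9 gave most of it, while Siglech, a defining marker, was at 0.23 CPM or less in every library, and Klk1 and Cox6a2 at 0.45 CPM or less. In lung the macrophage, monocyte and dendritic markers summed to 0.92 to 12.1 CPM in ∆Foxp3, against 2.64 to 145 in WT. Erythroid markers, led by Hbb-bs, summed to 1974 to 4901 CPM in lung WT and 1.19 to 403 CPM in lung ∆Foxp3, and to 9.10 to 16.6 and 10.8 to 397 CPM in spleen WT and ∆Foxp3. Epithelium markers summed to 21.4 to 37.6 CPM in spleen WT and 7.19 to 9.76 in spleen ∆Foxp3, and to 36.3 to 203 and 10.3 to 20.5 CPM in lung WT and ∆Foxp3, without overlap. Of 4 tested, 1 fell and 1 rose in spleen (12.5% and 14.1% of all genes). In lung 3 fell and 1 rose (10.5% and 9.74% of all genes). In spleen most of that sum was Epcam, while Sftpc and Scgb1a1 were at 0.54 CPM or less. The part of these cells in the levels of the interferon-stimulated genes was not tested.

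Interferon genes themselves gave almost no reads. Of 20 type I and type III ligand genes, none passed the filter and 13 had 0 counts in all 12 libraries. Over each group they summed to 2 counts in spleen WT, 15 in spleen ∆Foxp3, 2 in lung WT and 2 in lung ∆Foxp3. Ifne and Ifnk had the most, at 0.86 CPM or less in any library. Ligand RNA of other cells in the tissue was not measured.

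Of 8 tested receptor and kinase genes, 4 fell and 1 rose in spleen (12.5% and 14.1% of all genes), and 5 fell and 1 rose in lung (10.5% and 9.74%). Ifnar1 was at 362, 392 and 386 CPM in spleen WT and 159, 185 and 200 CPM in spleen ∆Foxp3. The lung libraries read 507, 503 and 417 CPM for WT and 227, 215 and 236 CPM for ∆Foxp3. Groups did not overlap, and Ifnar1 fell by 1.07 ± 0.13 on the log2 scale in each tissue (edgeR adjusted p 4.90e-05 and 9.43e-05).

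Ifnar2 fell by 1.09 in spleen and 0.79 in lung, where the call was lost in 7 of 21 alternatives, among them leaving out spleen WT 2 or any 1 lung library except ∆Foxp3 1, with an edgeR adjusted p of up to 0.243. Il10rb, shared by the type III interferon and IL-10 receptors, fell by 1.35 and 0.92, and Ifngr2, of the interferon gamma receptor, by 1.28 and 1.06, with a lung adjusted p of up to 0.207 over the alternatives. Jak1 fell in lung alone (-0.64) and Jak2, a kinase of other cytokine receptors, rose (0.69 and 0.82), while Tyk2 was not called (0.00 and 0.03). The lung call of Jak1 was lost without lung WT 1 or lung ∆Foxp3 2 (adjusted p up to 0.0609 over the alternatives). That of Jak2 was lost without lung WT 3 in lung, and without spleen WT 1 or spleen ∆Foxp3 3 in spleen (up to 0.0649).

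Of 6 STAT and IRF factors outside the set, 2 fell and 0 rose in spleen (12.5% and 14.1% of all genes). In lung 2 fell and 1 rose (10.5% and 9.74% of all genes). Irf3 fell by 0.84 and 0.63 and Irf2 by 0.60 and 0.54, where the lung call of Irf2 was lost in 11 of 21 alternatives (edgeR adjusted p up to 0.242). Irf8 was not called in spleen (0.22) and rose in lung (2.09 ± 0.35, edgeR adjusted p 0.000876). Its lung levels were 8.61, 20.7 and 15.3 CPM in WT and 78.9, 65.0 and 44.9 CPM in ∆Foxp3. The interaction of genotype and tissue called 0 of these 6 factors and 0 of the 71 tested genes of all pathway lists (0.925% of all genes). Calls in 1 tissue alone are thus not shown to differ between tissues here either. Irf1, which answers interferon gamma as well, was not called, with log2 fold changes of -0.32 in spleen and 0.27 in lung. Of 8 negative regulators, Socs3 fell (-0.76) and Ptpn11 rose (1.24) in spleen, and Pias1 fell in lung (-0.47), counts of 1 in 8 that are near the share over all genes. The call of Socs3 was lost in 9 of 21 alternatives and that of Pias1 in 10.

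Upstream sensing genes had 5 of 12 lower and 1 higher in spleen (12.5% and 14.1% of all genes). In lung 4 were lower and 2 higher (10.5% and 9.74% of all genes). The counts of higher genes are near those shares. Tlr7, the endosomal receptor of single-stranded RNA, was at 26.6, 22.5 and 38.7 CPM in spleen WT and 3.06, 1.92 and 2.30 CPM in spleen ∆Foxp3. For lung the values were 47.4, 33.4 and 25.1 CPM (WT) against 2.54, 3.37 and 0.89 CPM (∆Foxp3). The genotypes were far apart, and Tlr7 fell by 3.58 ± 0.42 and 3.93 ± 0.43 (edgeR adjusted p 3.06e-05 and 3.77e-05). Samhd1, which degrades deoxynucleotides, fell by 1.88 and 1.69, Ikbke by 1.04 and 0.94 and Trim25 by 1.31 and 2.04. Rnaseh2b, a subunit of an enzyme that removes ribonucleotides from DNA, rose by 1.62 and 1.18.

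Of 37 other interferon-induced genes tested, 17 fell and 2 rose in spleen (12.5% and 14.1% of all genes). In lung 16 fell and 1 rose (10.5% and 9.74% of all genes). Ifi213 fell by 3.26 and 3.31, Ifi209 by 2.40 and 2.35, Mndal by 1.12 in each tissue and Sp100, a nuclear body protein, by 1.17 and 1.06. Ifi213, Ifi209 and Mndal are Ifi200 relatives of Ifi203 and Ifi206.

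**Figure D5:**
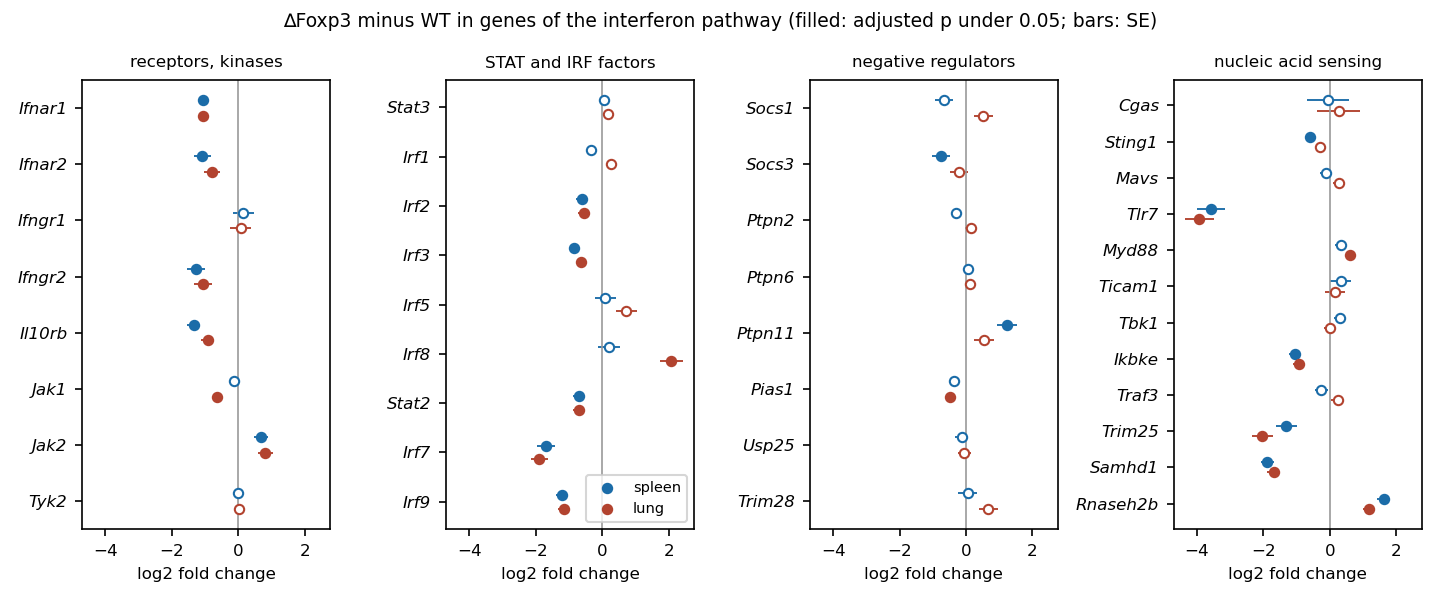
Log2 fold change of ∆Foxp3 against WT (x axes, bars are SE) for receptor and kinase genes, STAT and IRF factors, negative regulators and nucleic acid sensing genes, in spleen (blue) and lung (red). Filled points passed the test: Ifnar1 lies at -1.07 in both tissues and Tlr7 at -3.58 and -3.93, while Tyk2 and Irf1 are open.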

How the data were processed

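The deposited table holds raw counts, made by the authors, for 55011 gene symbols in 12 libraries, and it was analysed unchanged. The submitters' processing notes name mm10, Subread 2.0.0, STAR 2.7.3a and featureCounts. Gene annotation and strandedness were not given in the sources used here. Reads of overlapping genes could therefore not be told apart. The labels mention no molecular identifiers, so the counting interval and the floor speak for counting error alone.

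The counts were tested with edgeR 4.0.16 in R 4.3.3 by the quasi-likelihood F test with robust dispersion, TMM factors and the default filter by group. A single fit over 12 libraries had group as its one term, tests were two-sided, and p-values were adjusted by Benjamini-Hochberg over 13295 genes. The threshold for a call was an adjusted p of 0.05, and the steps were tested on simulated data. Values by library are given for the most abundant gene and the gene with the smallest adjusted p of each family, and for genes called in neither tissue or between WT tissues. Of each pathway list, up to 4 called genes per tissue are named, and 1 gene is not reported here. The family, the lists and the tests were chosen with earlier results of these data known. Alternatives were DESeq2 1.42.0, limma 3.58.1 with voom, RLE factors, library totals, no filter, a filter of 10 CPM in 3 libraries, only the groups compared, a replicate block, leaving out each library and, added after seeing the data, leaving out 3 libraries together. Coordinates are from GENCODE vM21 and promoters from RefSeq, GRCm38.p6. Shared windows are 38-base runs of a transcript also found in another gene.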

Additional observations from a re-analysis of the deposited data

How the results depend on the processing

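Leaving out 1 library at a time gave 27 to 31 interferon-stimulated genes called in spleen and 20 to 33 in lung, where the median log2 fold change ran from -1.43 to -1.11. The low end in lung came without lung WT 1. Over all genes, the counts called ran from 2710 to 3575 in spleen, 1457 to 3364 in lung, 281 to 693 between WT tissues, 42 to 152 between ∆Foxp3 tissues and 36 to 178 for the interaction. Between WT tissues 0 to 2 genes of the set were called, and 0 to 1 in the interaction. Without spleen WT 1, lung WT 1 and lung ∆Foxp3 3, a choice made after seeing the data, 17 of the set and 1321 of all genes were called in lung with a median of -1.08, 3 of the set between WT tissues and 1 in the interaction. No low-count filter gave 2 of the set and 957 genes between WT tissues, 292 genes between ∆Foxp3 tissues, 363 genes and 1 of the set in the interaction, and 3 of 5 summed rows in lung, against 549, 96 and 123 genes and 5 rows. DESeq2 gave 1046, 235 and 304 genes, limma gave 62 between ∆Foxp3 tissues and 27 in the interaction, and the fit of only the groups compared gave 2287 genes in spleen, against 3540. The cause of these shifts was not tested. Same-numbered libraries correlated at -0.04 to 0.10 in their deviations from the group means, and differently numbered ones at -0.12 to 0.08. Groups of 3 are too few for this to show whether the numbers pair the libraries. The replicate block moved the interaction from 123 to 74 genes. No called gene of the set reversed. Small estimates changed sign. In spleen these were Oas3 (0.013 with RLE factors, 0.018 with DESeq2, -0.44 to 0.34 leaving out 1 library), Ifih1 (-0.0093 to 0.61 leaving out 1 library, -0.010 without the 3 libraries), Jak1 (-0.21 to 0.014) and Irf8 (-0.16 to 0.44). In lung, leaving out 1 library and then the 3 together gave -0.39 to 0.22 and 0.29 for Ifit2, -0.69 to 0.056 and 0.18 for Cmpk2, -0.40 to 0.12 and 0.35 for Socs3, and -0.40 to 0.082 and 0.21 for Slfn1. Between ∆Foxp3 tissues Slfn1 ran from -0.18 to 0.30.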
